A study of Homo sapiens with 6 samples.

Results

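Metallothioneins are small cysteine-rich proteins that bind zinc and copper, and the genes examined here are 8 metallothionein genes together with MTF1 and SLC30A1, the regulator and the zinc exporter of the same response. The members were taken by name, as MT1A, MT1E, MT1F, MT1G, MT1H, MT1M, MT1X, MT2A, MTF1 and SLC30A1, and all 10 had a row among the 23228 genes of the count tables. RNA was sequenced from HEC-1-A cells, an established human endometrial adenocarcinoma line, after 24 h in serum-containing McCoy's medium with SMIP34 at 20 µM (3 libraries) or without it (control, 3 libraries). The compound, SMIP34, inhibits PELP1, a coregulator of nuclear receptors, and lowers the amount of that protein. The methods of the study give vehicle for the controls, while their labels name medium only. Both groups are of 1 unmodified cell line. The labels do not say whether the libraries of a group came from separate cultures, so p-values measure the spread between these libraries, which may be technical.

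When zinc or another metal enters a cell, the zinc finger protein MTF1 (metal regulatory transcription factor 1) binds metal response elements in promoters of metallothionein genes and of SLC30A1 and raises their transcription. Metallothioneins then hold the metal in clusters of cysteine thiolates, and SLC30A1 (ZnT1) carries zinc out of the cell across the plasma membrane. Metallothionein genes are therefore widely read as a gauge of free zinc, although glucocorticoids, oxidants and other stresses induce them as well. In endometrium, metallothionein expression is known to change with the menstrual cycle.

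With SMIP34, MT1X rose 1.94-fold and MT2A 1.17-fold, while MT1F did not pass the test. MTF1 rose 1.25-fold and SLC30A1 1.14-fold, the latter close to the threshold. MT1A, MT1E, MT1G, MT1H and MT1M were at or near 0 in both groups, and their counts were too low to test. Of the 10 members, 5 passed the filter on low counts, and 4 of these had an adjusted p under 0.05 in edgeR's quasi-likelihood test, all higher with SMIP34. Among all 13408 genes tested, 34.6% passed that threshold, 17.4% as higher and 17.2% as lower. The median log2 fold change of the 5 members was 0.22, against -0.0022 over all genes tested. MT1X was the 1 member that also exceeded a log2 fold change of 0.5, a level that 1.44% of all genes tested passed as higher. In 4 of the 5 members, every SMIP34 library lay above every control library, which 22.6% of all genes tested did as well.

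The libraries held between 19562711 and 22014835 counts on genes, and levels are given as CPM, counts divided by the library total after TMM scaling, in units common to all libraries. RNA of PELP1 itself was 139 ± 6.50 CPM in controls and 156 ± 4.42 CPM with SMIP34 (SD, n = 3 each). It was called higher, with a log2 fold change of 0.16 (adjusted p = 0.000746 in edgeR's quasi-likelihood test), and kept that call in all 18 alternative fits. All 6 epithelial markers examined, among them KRT8, EPCAM and the transcription factor PAX8, were measured at control means of 210 to 868 CPM. Their summed level was 3211 to 3311 CPM in controls and 3050 to 3059 CPM with SMIP34, with 5 of the 6 below 0 in log2 fold change and 3 of these called lower. Over all genes tested, 17.2% were called lower. The 5 fibroblast markers summed to 3.63 to 4.48 CPM in controls and 4.69 to 5.18 CPM with SMIP34. Most of that sum was COL1A1 (log2 fold change 0.50, adjusted p = 0.0151 in edgeR's quasi-likelihood test). PDGFRB, also tested, went the other way, from a mean of 0.871 CPM in controls to 0.599 CPM with SMIP34. Its log2 fold change was -0.54 (adjusted p = 0.307 in the same test), and it was not called. COL1A2, COL3A1 and DCN had means under 0.2 CPM in both groups. The 4 leukocyte markers summed to 0.818 to 1.49 CPM in controls and 1.11 to 2.23 CPM with SMIP34, with CD3E at 0 in all libraries. The 3 endothelial markers summed to 0.322 to 0.721 CPM in controls and 0.137 to 0.231 CPM with SMIP34. The part of these markers in the results was not tested. In bulk RNA, more cells that express a gene cannot be told apart from more RNA of that gene per cell.

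The metallothionein genes of the tables form a cluster on chromosome 16 between positions 56598961 and 56718108 of hg19, a span of 119 kb with 15 rows, and most of them have 3 short exons. Copies of the MT1 family resemble each other and MT2A, and the tables divide a read that maps to several places into fractions. The second exon shows how close the copies are. It has 66 bases and is wholly coding in the GENCODE annotation in each gene shown. Below, it is given 5′ to 3′ on the coding strand, from the GRCh37 genome (the assembly of hg19), with bases that differ from MT2A in capitals.
MT2A (chr16:56642904-56642969, plus strand): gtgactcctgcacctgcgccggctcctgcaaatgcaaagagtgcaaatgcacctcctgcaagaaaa
MT1X (chr16:56717077-56717142, plus strand): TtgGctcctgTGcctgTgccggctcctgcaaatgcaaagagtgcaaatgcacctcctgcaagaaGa
MT1F (chr16:56692587-56692652, plus strand): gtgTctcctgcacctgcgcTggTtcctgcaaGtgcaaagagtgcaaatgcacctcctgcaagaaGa
MT1E (chr16:56660378-56660443, plus strand): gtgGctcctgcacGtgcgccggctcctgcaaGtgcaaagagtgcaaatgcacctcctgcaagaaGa
MT1G (chr16:56701224-56701289, minus strand): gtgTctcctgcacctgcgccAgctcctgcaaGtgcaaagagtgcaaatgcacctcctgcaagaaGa
MT1H (chr16:56704418-56704483, plus strand): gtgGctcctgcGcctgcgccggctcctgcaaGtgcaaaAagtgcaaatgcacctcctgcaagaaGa
MT1M (chr16:56667252-56667317, plus strand): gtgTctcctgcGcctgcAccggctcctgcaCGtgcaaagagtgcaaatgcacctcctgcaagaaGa

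MT1X and MT1M differed from MT2A at 6 of these positions, MT1F and MT1H at 5, and MT1E and MT1G at 4. The exon of MT1E was identical to that of the pseudogene MT1JP. Such differences matter for reads of 50 bases, which were sequenced here. Each 50-base window that lies inside one exon was therefore sought elsewhere in GRCh37 by exact match. None of the 272 windows of MT2A, the 257 of MT1X or the 294 of MT1F occurred at another place, nor did any window of MT1G, MT1H or MT1M. Of the 359 windows of MT1E, 17 (4.74%) did. The counts in the tables were whole numbers in all 6 libraries for MT1X. They held a fraction in 2 libraries for MT2A and in 1 library for MT1F. Reads with a mismatch and reads across exon junctions were not covered by this count, so the split of reads between copies keeps some uncertainty.

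MT2A, the most widely expressed human metallothionein, lies at chr16:56642478-56643409 of hg19 on the plus strand. It had 377, 390 and 378 CPM in control replicates 1, 2 and 3 and 470, 432 and 432 CPM in SMIP34 replicates 1, 2 and 3. The groups did not overlap, and SMIP34 replicate 1 was the highest library. The group mean of MT2A went from 382 ± 7.54 to 445 ± 21.8 CPM (SD, n = 3 each). Its log2 fold change was 0.22 ± 0.031 (SE), with an adjusted p of 2.89e-06 in edgeR's quasi-likelihood test and a 95% confidence interval of 0.16 to 0.28. Per kb of exon, MT2A stood at 911 CPM in controls, rank 77 among all genes tested on that scale.

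MT1X lies at chr16:56716382-56718108 of hg19 on the plus strand, at the far end of the cluster. It had 25.1, 27.2 and 25.0 CPM in the controls and 51.1, 45.5 and 53.6 CPM with SMIP34. The lowest treated library was above every control by a wide margin. For MT1X the mean went from 25.8 ± 1.25 to 50.1 ± 4.17 CPM (SD, n = 3 each). This was a log2 fold change of 0.96 ± 0.060 (SE), adjusted p = 1.75e-12 in edgeR's quasi-likelihood test, with an interval of 0.83 to 1.08. Ordered by log2 fold change, MT1X was number 71 of the 13408 genes tested. Per kb of exon it had 63.8 CPM in controls and 124 CPM with SMIP34.

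MT1F lies at chr16:56691855-56693215 of hg19 on the plus strand, between the other copies. Its level was 19.1, 19.7 and 20.2 CPM in the controls and 17.7, 18.1 and 19.1 CPM with SMIP34. The groups overlapped narrowly, with the highest treated library at the level of the lowest control. The log2 fold change was -0.10 ± 0.069 (SE), adjusted p = 0.27 in edgeR's quasi-likelihood test, and its 95% interval from -0.24 to 0.040 does not include the change of MT1X or of MT2A. Per kb of exon, MT1F had 44.5 CPM in controls and 41.5 CPM with SMIP34, beside 63.8 and 124 CPM for MT1X on the same scale.

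**Figure D1:**
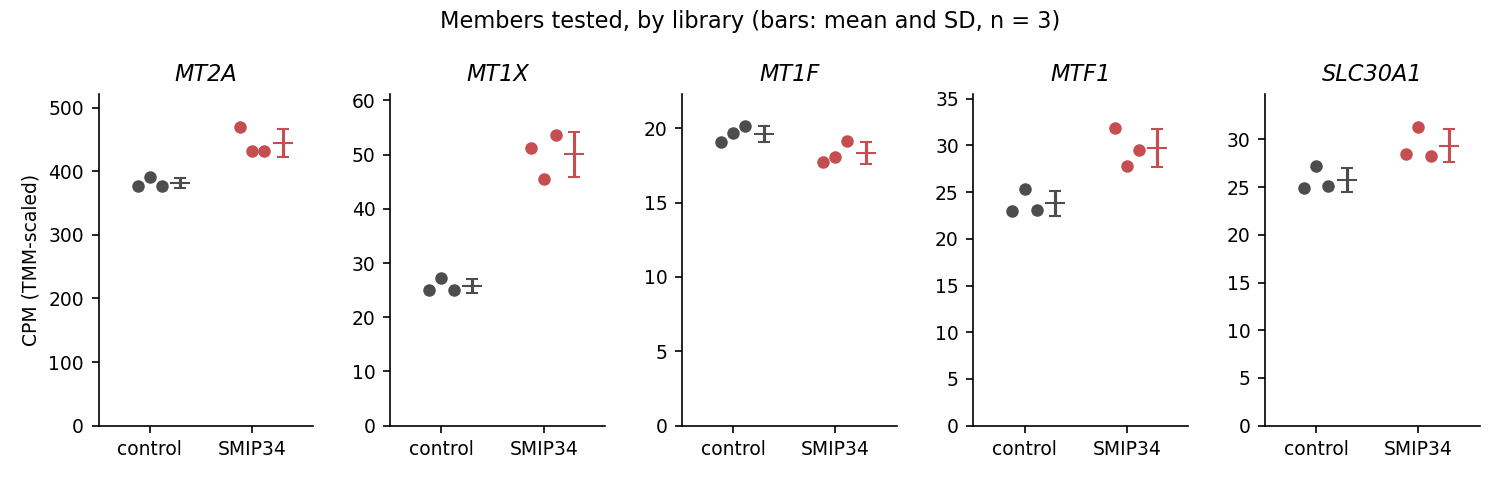
Level in CPM (vertical axes, linear, from 0) of the 5 members tested in each of 3 control and 3 SMIP34 libraries, with points for libraries and bars for the group mean and SD. MT1X shows the widest gap for its level, 25.0 to 27.2 CPM in controls and 45.5 to 53.6 CPM with SMIP34, and in MT1F the groups meet at 19.1 CPM.

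The 5 other metallothionein members were at or near 0. MT1A had 6, 12 and 2 counts in the controls and 5, 9 and 6 with SMIP34, so both groups summed to 20 (exact Poisson 95% interval 12.2 to 30.9). MT1H had 2, 5 and 3 counts in the controls and 5 in each SMIP34 library, sums of 10 (4.80 to 18.4) and 15 (8.40 to 24.7). These intervals overlap and cover counting error only. MT1E had 1 count over the controls and 2 over the SMIP34 libraries, and MT1G had 2 and 1. MT1M had 0 counts in all 6 libraries, and a count of 0 allows up to 3 counts, or 0.137 to 0.155 CPM depending on the library. Induction of these copies was not detectable at this depth, and none of them passed the filter.

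The tables hold 7 further metallothionein rows, and none of them could be tested either. MT1B, an MT1 copy, had 3, 3 and 3 counts in the controls and 3, 2 and 6 with SMIP34. The pseudogene MT1L had 1 count over the controls and 9 over the SMIP34 libraries, of which 8 were in SMIP34 replicate 3. MT1IP had 1 count in all. MT3, known from brain, MT4, known from squamous epithelium, and the pseudogenes MT1JP and MT1DP were at 0 in every library. Among the 12 untested rows, the highest count in any library was 12.

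**Figure D2:**
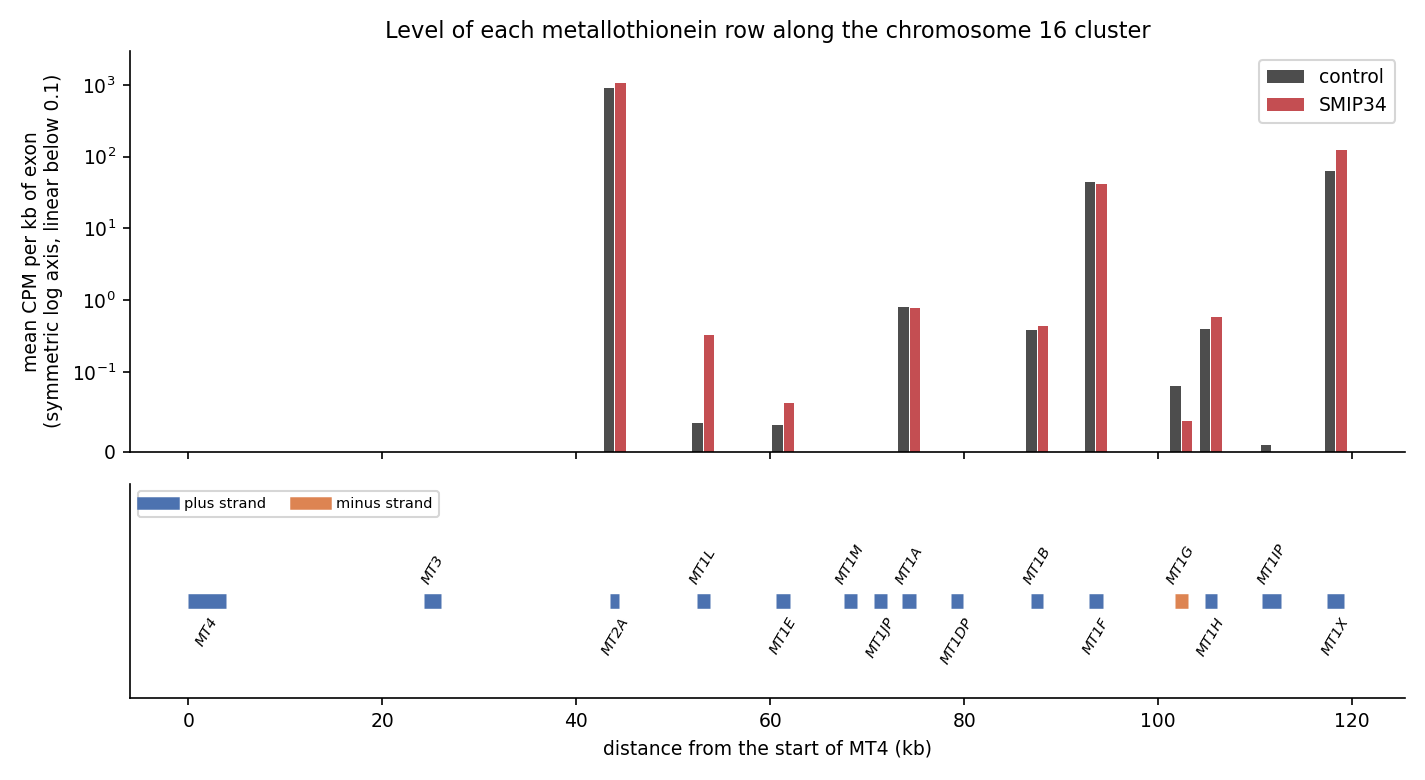
Upper panel, mean level in CPM per kb of exon (vertical axis, logarithmic above 0.1 and linear below) of each metallothionein row in control (grey bars) and SMIP34 (red bars) libraries, over the gene's place in the lower panel, where the horizontal axis is the distance in kb from the start of MT4 and colour gives the strand. MT2A, MT1X and MT1F stand apart at 41.5 to 1062 CPM per kb, and every other row is under 1 CPM per kb.

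Since the parts of a read divided among the 15 rows stay within their sum, these rows were also added up. Parts given to places outside the rows, and reads not counted for low mapping quality, are missing from the sum. The summed level was 422, 438 and 423 CPM in the controls and 540, 497 and 506 CPM with SMIP34, with no overlap. The group means were 428 ± 9.12 and 514 ± 22.5 CPM (SD, n = 3 each), a ratio of 1.20, which was given no test. Of the difference of 86.5 CPM between these means, MT2A made up 63.3 CPM, MT1X 24.3 CPM and MT1F -1.33 CPM. MT1X thus contributed 28.1% of the added metallothionein counts from 6.03% of the control sum.

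The makeup of the pool was compared as shares and as ratios. MT2A was 89.2 ± 0.155% of metallothionein counts in controls and 86.5 ± 0.982% with SMIP34, MT1X 6.03 ± 0.164% and 9.74 ± 0.748%, and MT1F 4.59 ± 0.148% and 3.57 ± 0.254% (SD, n = 3 each). These shares add up to the whole, so a higher share of one copy lowers the others. Ratios between copies do not have that constraint. MT2A counts were 14.8 ± 0.414 times those of MT1X in controls and 8.93 ± 0.757 times with SMIP34. The log2 ratio of MT1X to MT2A was 0.73 higher with SMIP34, that of MT1X to MT1F 1.06 higher and that of MT1F to MT2A 0.32 lower, and in each the groups did not overlap. A two-sided exact permutation test of 3 against 3 libraries gave p = 0.1 for each of the 3 ratios (0.1 after Benjamini-Hochberg adjustment), the smallest p that this design allows. Any of these ratios is fixed by the others, so they are not 3 separate results.

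**Figure D3:**
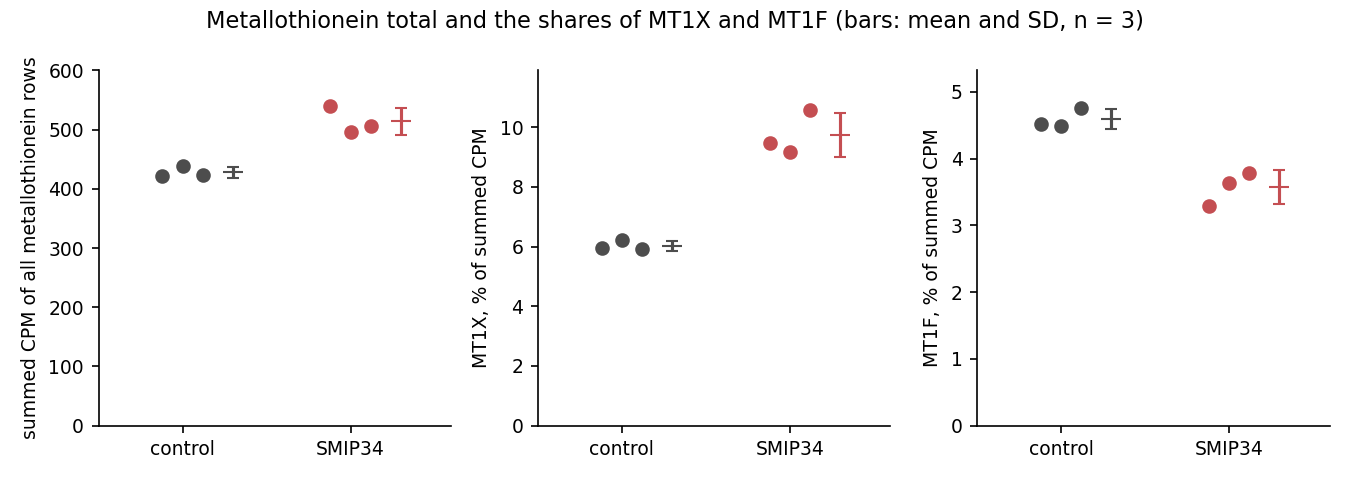
Summed CPM of the 15 metallothionein rows per library (vertical axis from 0) and the share of MT1X and MT1F in that sum in percent, with points for libraries and bars for the mean and SD. The sum is 422 to 438 CPM in controls and 497 to 540 CPM with SMIP34, and the MT1X share goes from 6.03% to 9.74% while that of MT1F goes from 4.59% to 3.57%.

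The sequence before the start of these genes is shown because metal response elements lie there. The core of the element was searched as TGCACNC or TGCGCNC on both strands in the 250 bases before each gene's start, in RefSeq promoters of GRCh38.p14. Entries were found for 5 members, MT1H, MT1X, MT2A, SLC30A1 and MTF1, and not for MT1A, MT1E, MT1F, MT1G and MT1M. Each line below runs 5′ to 3′ on the gene's strand and ends at the base before the start, with matches in capitals, so that a match on the other strand appears as its reverse complement. The windows are chr16:56608334-56608583 (plus strand) for MT2A, chr16:56682220-56682469 (plus strand) for MT1X, chr16:56669564-56669813 (plus strand) for MT1H and chr1:211579162-211579411 (minus strand) for SLC30A1.
MT2A: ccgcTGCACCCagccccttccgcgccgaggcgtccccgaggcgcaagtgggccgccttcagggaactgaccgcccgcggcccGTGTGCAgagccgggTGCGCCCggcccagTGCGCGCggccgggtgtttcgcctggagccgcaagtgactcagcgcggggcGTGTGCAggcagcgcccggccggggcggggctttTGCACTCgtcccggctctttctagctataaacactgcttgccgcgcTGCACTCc
MT1X: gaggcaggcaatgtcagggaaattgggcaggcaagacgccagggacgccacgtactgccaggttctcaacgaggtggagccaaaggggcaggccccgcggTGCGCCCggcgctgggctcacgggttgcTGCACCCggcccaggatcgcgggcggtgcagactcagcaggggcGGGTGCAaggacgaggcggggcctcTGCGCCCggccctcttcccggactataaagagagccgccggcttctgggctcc
MT1H: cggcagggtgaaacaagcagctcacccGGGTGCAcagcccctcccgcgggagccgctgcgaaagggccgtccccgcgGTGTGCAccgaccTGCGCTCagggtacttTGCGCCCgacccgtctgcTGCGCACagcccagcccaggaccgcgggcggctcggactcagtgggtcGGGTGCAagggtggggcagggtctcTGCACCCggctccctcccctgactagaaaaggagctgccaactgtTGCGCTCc
SLC30A1: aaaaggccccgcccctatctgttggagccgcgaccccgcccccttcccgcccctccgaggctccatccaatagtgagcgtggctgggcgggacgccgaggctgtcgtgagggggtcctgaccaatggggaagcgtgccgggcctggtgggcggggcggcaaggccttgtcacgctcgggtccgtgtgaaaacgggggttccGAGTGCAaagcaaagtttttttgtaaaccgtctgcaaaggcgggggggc

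MT1H held 8 matches, MT2A 7, MT1X 4 and SLC30A1 1, none of which overlapped another, and MTF1 held 0. Among all 35116 promoters of the table, 24.8% held at least 1 match in the same length, 0.37% at least 4 and 0.12% at least 5. A match a short way upstream of the start was shared by the 3 metallothionein genes, at bases -53 to -47 in MT1X and MT1H and at -54 to -48 in MT2A, counted from the base before the start as -1. In MT1X and MT1H the matches at -78 to -72 also fell on the same bases and strand. Matches and measured levels came in different orders. MT1H, with the most, had at most 5 counts in a library, and MT1X, with 4 matches, had a higher fold change than MT2A, with 7. A match is a run of letters and was not tested for binding. Whether the number of matches goes with level or change was not tested either.

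MTF1, the metal-sensing transcription factor, has a row at chr1:38275239-38325292 of hg19 on the minus strand, with 11 exons. Its level was 23.0, 25.3 and 23.1 CPM in the controls and 31.9, 27.8 and 29.5 CPM with SMIP34. All treated libraries lay above all controls. The log2 fold change was 0.32 ± 0.064 (SE, 95% interval 0.19 to 0.45), with an adjusted p of 0.000296 in edgeR's quasi-likelihood test. Its level per kb of exon was low, 2.98 CPM in controls and 3.73 CPM with SMIP34.

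SLC30A1, the zinc exporter of the plasma membrane, has a row at chr1:211748381-211752099 of hg19 on the minus strand. It had 24.9, 27.2 and 25.1 CPM in the controls and 28.4, 31.3 and 28.2 CPM with SMIP34. The groups did not overlap, though control replicate 2 came close to the lowest treated library. The log2 fold change was 0.19 ± 0.061 (SE, 95% interval 0.060 to 0.31) with an adjusted p of 0.0194 in edgeR's quasi-likelihood test. The call was lost in DESeq2 (0.19, adjusted p = 0.0584), and in edgeR without control replicate 1 (0.16, adjusted p = 0.074), without control replicate 3 (0.17, adjusted p = 0.0522) and without SMIP34 replicate 2 (0.14, adjusted p = 0.136).

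**Figure D4:**
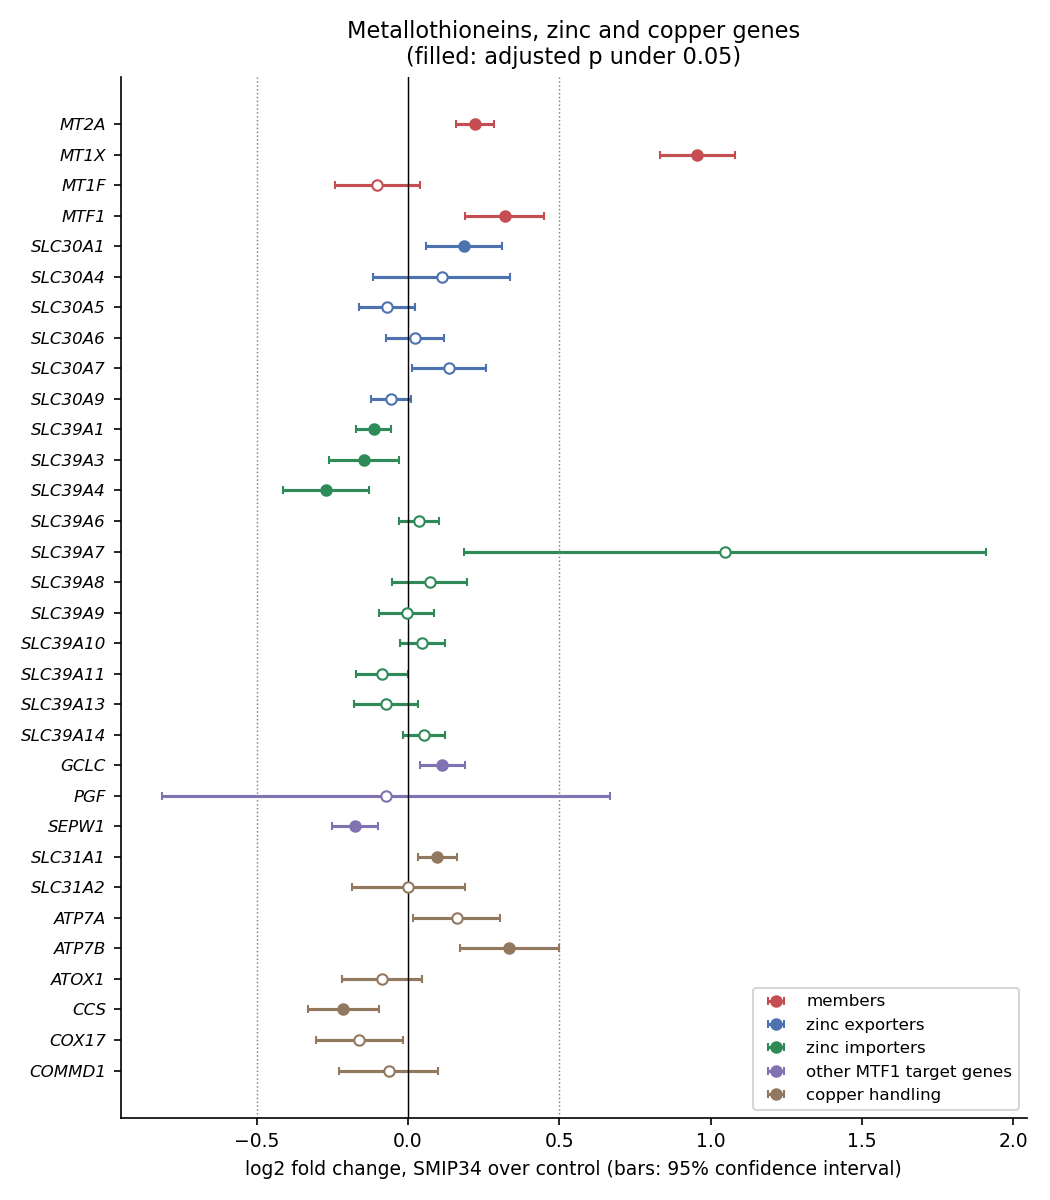
Log2 fold change of SMIP34 over control (horizontal axis, dotted lines at 0.5 in either direction) with its 95% confidence interval for the members, zinc exporters, zinc importers, other MTF1 target genes and copper handling genes that were tested, filled where the adjusted p is under 0.05. MT1X stands at 0.96, MTF1, MT2A and SLC30A1 at 0.32, 0.22 and 0.19, and the interval of MT1F crosses 0.

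Gene length went with the direction of change in these libraries, and the members differ greatly in length. The genes tested were split into 10 bins of equal size by exon length. In bin 1, the shortest (43 to 1206 bases), the median log2 fold change was -0.10, and 4.10% of genes were called higher and 32.8% lower. MT2A (419 bases), MT1X (404 bases) and MT1F (441 bases) belong to that bin. SLC30A1 (2018 bases) belongs to bin 3, with a median of -0.056 and 7.38% called higher. MTF1 (7972 bases) belongs to bin 10, with a median of 0.12 and 39.6% called higher. When each library was given offsets from a smooth fit on length, the log2 fold change of MT2A became 0.35 (adjusted p = 3.06e-12), over 1.5 times its value without them, that of MT1X 1.08 and that of SLC30A1 0.24, whereas that of MTF1 became 0.24 and that of MT1F 0.025 (adjusted p = 0.822), all in edgeR's quasi-likelihood test. The part of length in these differences was not tested beyond this.

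**Figure D5:**
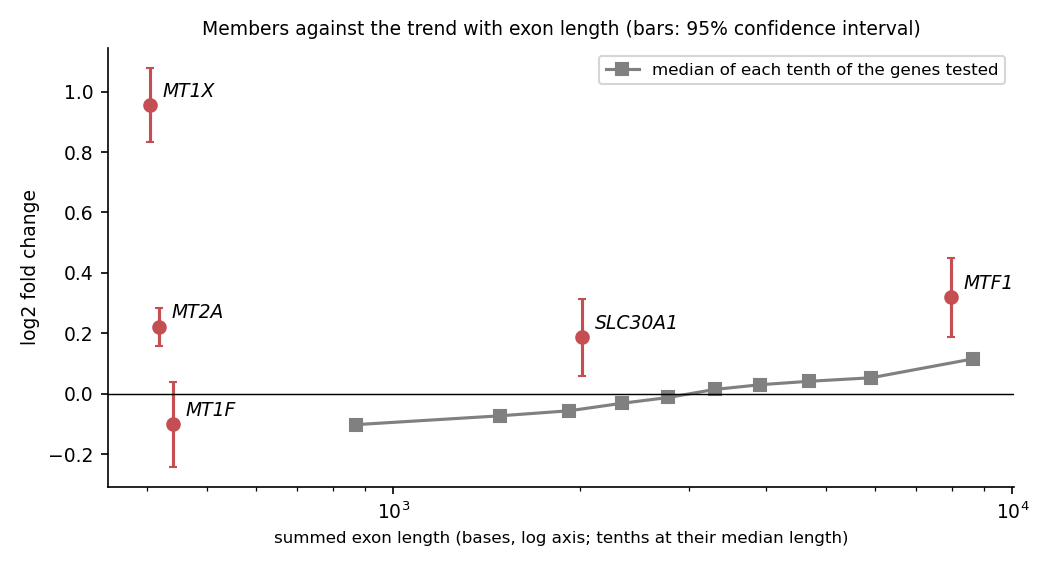
Log2 fold change (vertical axis) over summed exon length in bases (horizontal axis, logarithmic) for the 5 members tested, with 95% confidence intervals, and in grey the median of each of 10 bins of genes at its median length. The medians go from -0.10 to 0.12, and MT1X and MT2A lie above the median of the shortest bin.

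The other zinc transporters were read from the same fit. Of the 10 zinc exporters SLC30A1 to SLC30A10, 6 were tested, and SLC30A1 was the 1 that was called, with a median log2 fold change of 0.067 over the 6. Among all genes tested, 17.4% were called higher and 17.2% lower. SLC30A7, which loads zinc into the secretory pathway, had a log2 fold change of 0.14 ± 0.059 (SE) and an adjusted p of 0.0762 in edgeR's quasi-likelihood test, and its groups did not overlap. SLC30A5, which works in the early secretory pathway as well, had the lowest value at -0.068 (adjusted p = 0.256), which became -0.12 (adjusted p = 0.0481) with offsets on GC content, an alternative chosen after seeing the data. SLC30A8, the zinc transporter of insulin granules, and SLC30A10, a manganese exporter, were at 0 in all libraries.

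Of the 14 importers SLC39A1 to SLC39A14, 11 were tested and 3 were called, all of them lower, with a median log2 fold change of -0.0043 over the 11. Among all genes tested, 34.6% were called, 17.2% of all as lower. SLC39A4 (ZIP4), known for zinc uptake in the intestine, had 21.4, 23.2 and 21.9 CPM in controls and 17.0, 19.4 and 18.9 CPM with SMIP34. It fell by 0.27 on the log2 scale (adjusted p = 0.00347 in edgeR's quasi-likelihood test). SLC39A1 (ZIP1), the most abundant of the list by CPM, went from 310 ± 7.70 to 286 ± 2.60 CPM (SD, n = 3 each) and fell by 0.11 (adjusted p = 0.00226). SLC39A3 (ZIP3) fell by 0.14, with an adjusted p of 0.0474 that rose above the threshold in 10 of 18 alternative fits. Leaving out any library other than SMIP34 replicate 2 was enough to lose it, with values from -0.090 (without SMIP34 replicate 1, adjusted p = 0.282) to -0.16. SLC39A10 (ZIP10), which MTF1 is known to repress, had a log2 fold change of 0.048 (adjusted p = 0.334). The highest value of the list, 1.05 for SLC39A7, was not called (adjusted p = 0.0544) and rested on SMIP34 replicate 3, with 5.47 CPM against 1.13 and 1.24 CPM in the other treated libraries. Without that library, the value was -0.077 (adjusted p = 0.886). The row of SLC39A7 covers 14724 bases of exon, and its counts held a fraction in 5 libraries. Its reads were thus partly divided among several places, so its level and its place in the list are uncertain. The part of this division in its change was not tested. SLC39A7 was called higher with the replicate number as a block (1.04, adjusted p = 0.0198), with the legacy method (adjusted p = 0.0443), with scaling by library size only (adjusted p = 0.0381), with a filter of at least 1 count (adjusted p = 0.0452), and without SMIP34 replicate 1 (1.41, adjusted p = 0.00604) or SMIP34 replicate 2 (1.38, adjusted p = 0.0121), all of which keep SMIP34 replicate 3.

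Of 5 other genes reported to carry metal response elements, 4 were tested, with 1 called higher and 1 lower. The shares over all genes tested were 17.4% and 17.2%. GCLC, the catalytic subunit of the enzyme that limits glutathione synthesis, went from 94.4 ± 2.29 to 102.0 ± 3.11 CPM (SD, n = 3 each) and rose by 0.11 on the log2 scale (adjusted p = 0.0167 in edgeR's quasi-likelihood test). The call was lost without control replicate 1 (0.11, adjusted p = 0.0513), control replicate 2 (0.10, adjusted p = 0.0678) or SMIP34 replicate 1 (0.090, adjusted p = 0.109). SEPW1, a small selenoprotein, fell by 0.18 on the log2 scale (adjusted p = 0.000678), but with length offsets its log2 fold change was -0.077 and it was not called (adjusted p = 0.0851). PGF, a growth factor of the placenta, stayed under 1 CPM in all libraries and was not called, and SLC40A1, the iron exporter ferroportin, had too few counts to test.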

How the data were processed

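The HEC-1-A libraries, 3 control and 3 SMIP34, were grouped by their treatment labels, and none was left out. The values are estimated counts per gene (fractional read counts) that the authors deposited without normalization. Per the file headers, featureCounts 1.5.0-p1 counted reads by strand on the exons of the UCSC hg19 genes. It took reads with a mapping quality of at least 2 and divided those that mapped to several places. The submitters' processing notes name HISAT2 for alignment, and the methods of the study name tophat2 and HTSeq. The labels name library kits of different makers.

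The counts were rounded to whole numbers, filtered with filterByExpr (13408 genes left), scaled by TMM (factors 0.988 to 1.01) and compared in R 4.3.3 by edgeR's quasi-likelihood test (version 4.0.16), with p-values adjusted over all these genes by Benjamini-Hochberg and calls at 0.05. Intervals cover 95%, and those on counts cover counting error only. The procedure was tested on simulated data. The members and gene lists were chosen with earlier results of these data known. The genes named are all members, all other metallothionein rows, PELP1, and of each list those past the threshold and a log2 fold change of 0.5, or otherwise the extremes. Further list genes named were chosen after their values were seen. Alternatives were DESeq2 1.42.0, limma voom 3.58.1, the legacy method, other scalings and filters, counts rounded down, length offsets (loess span 0.3), a replicate block and leaving out each library. Offsets on GC content were added after the data were seen. Exon sequence of 1 member is not reported here. Figures were drawn with matplotlib 3.10.9.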

Additional observations from a re-analysis of the deposited data

How the results depend on the processing

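Over 18 alternative fits, MT1X kept its call with log2 fold changes of 0.90 to 1.08, MT2A with 0.18 to 0.35 and MTF1 with 0.24 to 0.37. SLC30A1 lost its call in 4 of the 18 (adjusted p up to 0.136). MT1F was called in none (adjusted p 0.206 to 0.822) and turned from -0.10 to 0.025 with length offsets. Leaving out 1 library at a time gave 3 to 4 members called, 3706 to 4646 genes called, 389 to 448 of them past the fold, and a summed metallothionein ratio of 1.17 to 1.22. That ratio was 1.502 without MT2A, which made up most of the sum and rose less (1.17-fold) than MT1X (1.94-fold). Among other genes, SLC39A7 ranged from -0.077 (without SMIP34 replicate 3) to 1.41 when 1 library was left out. DESeq2 called 3586 genes and 3 members. With the replicate number as a block, 4432 genes and 4 members were called, 453 genes and 1 member past the fold. Deviations of libraries with the same number correlated at -0.028, 0.0334 and -0.0111, and 2 of 6 libraries correlated best with their own number, so no pairing was assumed. The low counts of 5 metallothionein members limit what can be said of them.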

Other observations

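Copper handling genes, whose products share the metallothioneins' other main metal, were read from the same fit. All 8 were tested, and 2 were called higher and 1 lower, with a median log2 fold change of -0.031. The shares over all genes tested were 17.4% called higher and 17.2% called lower. ATP7B, the copper-exporting ATPase mutated in Wilson disease, had 13.5, 12.5 and 12.9 CPM in controls and 17.0, 15.3 and 16.7 CPM with SMIP34, and rose by 0.33 on the log2 scale (adjusted p = 0.00181 in edgeR's quasi-likelihood test). SLC31A1 (CTR1), the main copper importer, went from 130 ± 1.13 to 139 ± 1.14 CPM (SD, n = 3 each) and rose by 0.096 on the log2 scale (adjusted p = 0.0174). That call was lost with length offsets (0.066, adjusted p = 0.0871) and without SMIP34 replicate 1 (adjusted p = 0.0518) or SMIP34 replicate 2 (adjusted p = 0.0702). CCS, the copper chaperone of superoxide dismutase, fell by 0.21 (adjusted p = 0.00456), and its call was lost with length offsets (-0.13, adjusted p = 0.0698) and without control replicate 2 (-0.16, adjusted p = 0.0516).

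Genes that neighbour the metallothionein cluster were compared with it. Within 500 kb on either side the tables hold 16 other rows, of which 9 were tested, and 4 were called higher and 3 lower, with a median log2 fold change of 0.033. Over all genes tested, 17.4% were called higher and 17.2% lower. The call of NLRC5 held in all 18 alternative fits. BBS2 (-0.13, adjusted p = 0.0487) lost its call in 11 of the 18, the replicate block among them (adjusted p = 0.059), and among the fits with 1 library left out it held only without control replicate 3 and without SMIP34 replicate 3. FAM192A (0.11, adjusted p = 0.0359) lost its call in 6, which were DESeq2, upper-quartile factors and the fits without control replicate 2, control replicate 3, SMIP34 replicate 1 or SMIP34 replicate 3. HERPUD1 (-0.14, adjusted p = 0.00999) lost it in 3, with length offsets and without control replicate 1 or SMIP34 replicate 2. The values ran from -0.25 for CPNE2 (adjusted p = 0.01 in edgeR's quasi-likelihood test) to 0.20 for NLRC5 (adjusted p = 0.0019), a regulator of MHC class I genes. CPNE2 was not called without control replicate 2 (adjusted p = 0.0616) or without SMIP34 replicate 1 (adjusted p = 0.055). NUP93, a nucleoporin and the next gene beyond MT1X in these tables, had 75.5, 73.5 and 84.4 CPM in controls and 88.4, 82.4 and 91.7 CPM with SMIP34 (log2 fold change 0.17, adjusted p = 0.00574), and its groups overlapped. Its call was lost without control replicate 2 (0.13, adjusted p = 0.0594) and without SMIP34 replicate 3 (0.13, adjusted p = 0.0522).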
